A study of Mus musculus with 12 samples.

Results

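The genes described here are 10 immediate early and activity-regulated genes of the mouse neocortex, Fos, Fosb, Junb, Egr1, Arc, Npas4, Bdnf, Nr4a1, Dusp1 and Ier2. They were taken from a list by gene symbol and not by their values, though chosen with earlier results of these data known. Each matched 1 Ensembl gene identifier in both count tables, so that the group is 10 of 46603 annotated genes. The study sequenced polyadenylated RNA from microdissected cortex of C57Bl/6J mice. E12.5 samples took both hemispheres and P5 samples took one. The 4 groups were Chd8+/+ and Chd8+/- mice at each stage, with 3 libraries in each group and 12 in all. The Chd8+/- mice carry 1 null allele of Chd8, a chromatin remodeling factor, made by Cre deletion of exon 3 in the germline, and the Cre transgene was bred out before the experiment. The controls carry 2 intact alleles. It is not stated whether a library holds RNA from a single animal, so that p-values measure the spread between these libraries.

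Immediate early genes are switched on within minutes of a stimulus, without the need for new protein synthesis. In neurons, calcium entry and neurotrophin signaling activate kinases that phosphorylate CREB and the partners of SRF, which are already bound at the promoters of these genes. Fos, Fosb, Junb, Egr1, Npas4 and Nr4a1 encode transcription factors, Arc and Bdnf encode proteins that act at synapses, and Dusp1 encodes a phosphatase that switches MAP kinases off. Because handling and dissection of tissue can also switch them on, the spread of these genes between libraries of 1 group is described here beside the comparisons.

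The promoters of 7 of the 10 genes were present in the RefSeq table (GRCm38.p6), and the following 6 genes had a single promoter there. They are shown because 5 of them rose together between the stages while Dusp1 fell, and because cyclic AMP response elements, the sites that CREB binds, are known in promoters of this kind. The windows are chr12:85473640-85473889 (+ strand), chr7:19310046-19310295 (- strand), chr8:84978749-84978998 (- strand), chr19:4989972-4990221 (- strand), chr15:101266596-101266845 (+ strand) and chr17:26508520-26508722 (- strand). Each window holds the 250 bases before the annotated start, except that of Dusp1, of which 203 bases lie outside the gene as counted. Sequences run 5′ to 3′ on the strand of the gene. Capitals mark the CRE half-site (TGACG or its complement CGTCA), the full CRE (TGACGTCA, which contains half-sites), the TATA box (TATAAA, sense strand) and the EGR site (GCGNGGGCG or its complement).
Fos: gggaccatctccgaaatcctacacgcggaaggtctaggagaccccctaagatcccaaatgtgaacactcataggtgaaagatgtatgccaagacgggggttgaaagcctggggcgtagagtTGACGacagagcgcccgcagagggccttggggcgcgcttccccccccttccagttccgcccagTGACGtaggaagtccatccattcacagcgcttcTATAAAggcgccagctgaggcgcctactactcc
Fosb: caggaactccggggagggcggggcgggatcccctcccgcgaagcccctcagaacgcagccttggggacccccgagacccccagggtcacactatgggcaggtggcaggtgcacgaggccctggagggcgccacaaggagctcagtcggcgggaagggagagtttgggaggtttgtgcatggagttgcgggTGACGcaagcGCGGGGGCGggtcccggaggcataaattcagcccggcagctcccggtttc
Junb: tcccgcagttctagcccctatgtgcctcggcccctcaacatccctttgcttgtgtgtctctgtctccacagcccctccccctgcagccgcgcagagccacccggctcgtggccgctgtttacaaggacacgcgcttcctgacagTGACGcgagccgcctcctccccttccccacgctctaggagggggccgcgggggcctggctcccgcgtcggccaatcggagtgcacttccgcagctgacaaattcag
Npas4: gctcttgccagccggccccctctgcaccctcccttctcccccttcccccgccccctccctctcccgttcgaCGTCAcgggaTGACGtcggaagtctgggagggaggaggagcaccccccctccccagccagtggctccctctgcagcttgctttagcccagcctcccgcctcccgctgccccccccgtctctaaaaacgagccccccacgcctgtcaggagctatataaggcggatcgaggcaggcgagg
Nr4a1: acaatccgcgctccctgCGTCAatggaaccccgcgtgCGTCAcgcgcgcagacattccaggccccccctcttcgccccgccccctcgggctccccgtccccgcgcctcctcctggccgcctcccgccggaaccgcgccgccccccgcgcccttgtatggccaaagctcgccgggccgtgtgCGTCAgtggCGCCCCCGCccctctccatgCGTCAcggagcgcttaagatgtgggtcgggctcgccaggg
Dusp1: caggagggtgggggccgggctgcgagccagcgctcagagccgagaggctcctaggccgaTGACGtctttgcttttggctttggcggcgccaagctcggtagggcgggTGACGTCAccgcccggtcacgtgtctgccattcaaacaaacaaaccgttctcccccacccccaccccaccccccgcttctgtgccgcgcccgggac
A CRE half-site was present in the 250 bases of 6 of these 6 promoters, in 1 copy in Fosb and Junb, 2 in Fos and Npas4, 3 in Dusp1 and 4 in Nr4a1, where copies in a full CRE are counted on both strands. Among all 32851 promoters of the table, 17.8% held a CRE half-site in a window of this length. The full CRE was found in Dusp1 alone of the 6, and in 1.55% of all promoters. A TATA box was present in Fos (7.59% of all promoters), and EGR sites in Fosb and Nr4a1 (4.70% of all promoters). Neither the AP-1 site (TGANTCA, both strands, 6.75% of all promoters) nor the CArG box (both strands, 1.47% of all promoters) was found in these 6 windows. Bdnf had 7 promoters in the table, of which 1 held a CRE half-site. These matches describe the letters of a short window and were not tested for binding.

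Between 38774591 and 54695236 reads were counted per library. Values are given as CPM, counts scaled to a library of 1000000 after scaling all 12 libraries together with TMM, which corrects for differences in composition. Levels of different genes are compared only as CPM per kilobase of exon. Chd8, the targeted gene, followed the genotype labels in all libraries, with 161 to 167 CPM in Chd8+/- against 229 to 235 CPM in Chd8+/+ at E12.5, and 95.0 to 98.6 CPM against 145 to 151 CPM at P5. Markers of the labelled tissue were present, with 4 cortical identity genes summing to between 703 and 888 CPM at E12.5 and between 229 and 251 CPM at P5. Markers of other cell types were also present. Erythrocyte genes summed to 3058 to 4230 CPM at E12.5 and 106 to 131 CPM at P5, choroid plexus genes to 43.9 to 103 CPM and 323 to 573 CPM, and striatal medium spiny neuron genes to 8.32 to 11.4 CPM and 165 to 252 CPM. No gene of the group shares exons or its genomic span with another annotated gene. Gene positions are those of the counted annotation, in GRCm38.

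To determine how these genes differ between the embryonic and the postnatal neocortex, P5 was compared with E12.5 within each genotype, using edgeR's quasi-likelihood test with Benjamini-Hochberg adjustment over all genes tested. In both genotypes, 8 of the 10 genes rose and 2, Dusp1 and Ier2, fell. The difference was between stages that also differ in sequencing run, hemispheres taken and count table, and these cannot be told apart. At this distance in development most genes change. Of 19039 genes tested in Chd8+/+, 84.0% were called, with 41.7% higher and 42.3% lower at P5, and of 18894 genes in Chd8+/-, 83.2% were called, with 41.7% higher and 41.5% lower. The stages did not overlap at 85.0% and 85.1% of all genes tested, so that a call or a lack of overlap is the common state of a gene here, and the size of the difference says more. In bulk tissue, fewer cells of a type and less RNA per cell cannot be told apart.

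**Figure D1:**
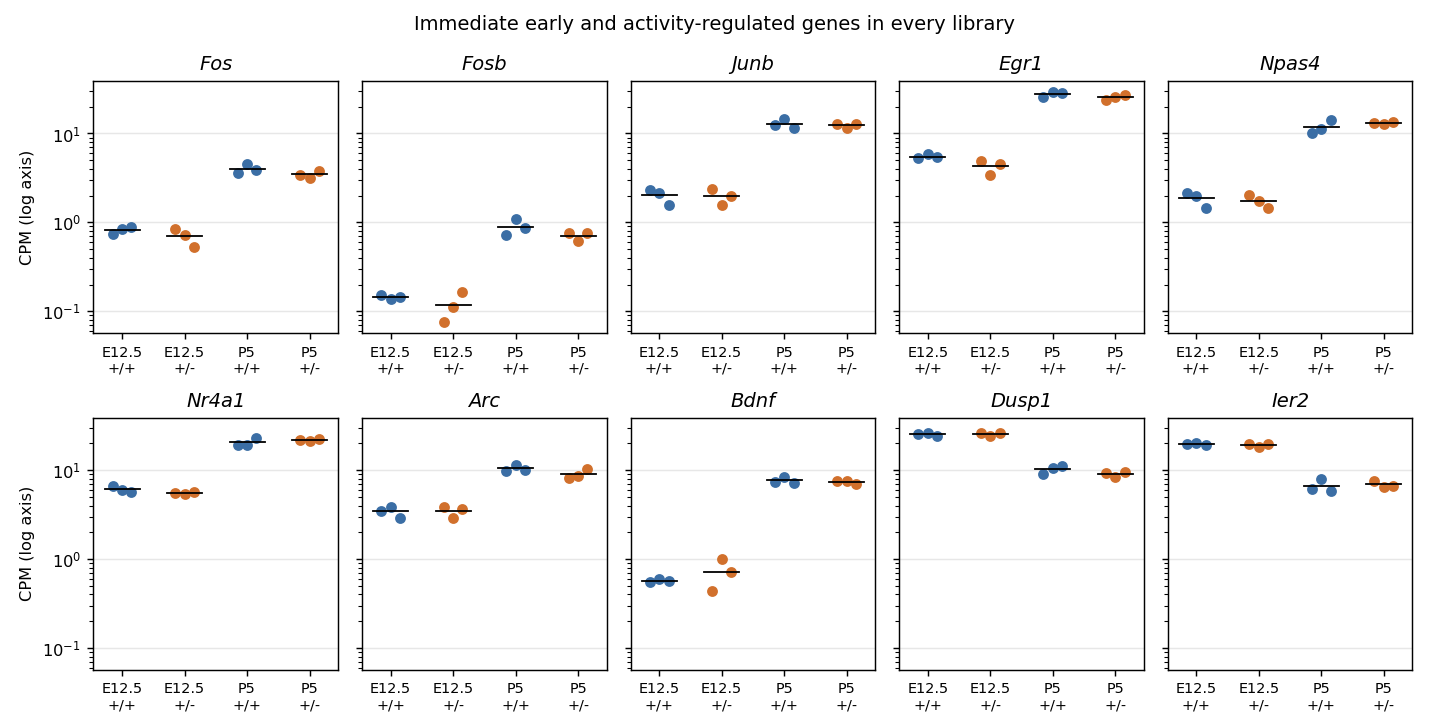
CPM of each gene (log axis) in the 3 libraries of each group, with Chd8+/+ in blue, Chd8+/- in orange and the mean as a line. The 2 stages are apart at all 10 genes, with Dusp1 and Ier2 as the genes that are lower at P5, while the genotypes overlap within each stage at all genes except Egr1 at E12.5.

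Fos (ENSMUSG00000021250, chr12:85473890-85477273, + strand), the founding member of the AP-1 family, was at 0.732, 0.850 and 0.899 CPM in the 3 Chd8+/+ libraries at E12.5, and at 3.59, 4.50 and 3.84 CPM at P5. In Chd8+/- it was at 0.843, 0.715 and 0.533 CPM, and at 3.40, 3.17 and 3.83 CPM at P5. All 6 postnatal libraries were above all 6 embryonic ones. The log2 fold change was 2.26 in Chd8+/+ (standard error 0.161, adjusted p = 4.93e-08, edgeR) and 2.34 in Chd8+/- (standard error 0.188, adjusted p = 2.24e-06, edgeR), which are 4.80-fold and 5.05-fold. The embryonic values rest on 26 to 43 reads per library.

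Fosb (ENSMUSG00000003545, chr7:19302721-19310045, - strand), a paralog of Fos whose protein is known to accumulate with repeated activity, was the lowest gene of the group. At E12.5 it had 8, 6 and 7 reads in Chd8+/+ and 3, 5 and 8 reads in Chd8+/- libraries, or 0.0767 to 0.164 CPM. At P5 it was at 0.726, 1.10 and 0.860 CPM in Chd8+/+ and 0.766, 0.610 and 0.753 CPM in Chd8+/-. The stages did not overlap. Its log2 fold change was 2.58 in Chd8+/+ (standard error 0.295) and 2.55 in Chd8+/- (standard error 0.305), the largest standard errors of the group for this comparison.

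Junb (ENSMUSG00000052837, chr8:84976909-84978748, - strand), another AP-1 subunit, was at 2.31, 2.16 and 1.57 CPM in Chd8+/+ and 2.38, 1.56 and 1.97 CPM in Chd8+/- at E12.5. At P5 it reached 12.4, 14.6 and 11.4 CPM in Chd8+/+ and 12.9, 11.5 and 12.9 CPM in Chd8+/-. The rise was nearly the same in size in the 2 genotypes, with log2 fold changes of 2.67 (standard error 0.143) and 2.68 (standard error 0.147).

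Egr1 (ENSMUSG00000038418), a zinc finger factor that is induced through SRF, was at 5.26, 5.81 and 5.37 CPM in Chd8+/+ and at 4.93, 3.40 and 4.53 CPM in Chd8+/- at E12.5. At P5 the values were 26.0, 28.9 and 28.7 CPM in Chd8+/+ and 24.1, 25.5 and 27.4 CPM in Chd8+/-. With 1005 to 1395 reads per library it was the most deeply counted gene of the group at P5. It rose by 2.35 on the log2 scale in Chd8+/+ (standard error 0.0750, adjusted p = 2.37e-11, edgeR) and by 2.59 in Chd8+/- (standard error 0.128, adjusted p = 6.75e-08, edgeR).

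Npas4 (ENSMUSG00000045903, chr19:4984355-4989971, - strand), a factor known for its dependence on calcium entry in neurons, was at 2.14, 2.00 and 1.44 CPM in Chd8+/+ and 2.04, 1.74 and 1.46 CPM in Chd8+/- at E12.5. At P5 it was at 10.1, 11.2 and 14.1 CPM in Chd8+/+ and 13.1, 12.8 and 13.5 CPM in Chd8+/-. The log2 fold change was 2.66 in Chd8+/+ (standard error 0.163) and 2.93 in Chd8+/- (standard error 0.123), second to Bdnf in the latter.

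Nr4a1 (ENSMUSG00000023034, chr15:101266846-101274792, + strand), an orphan nuclear receptor, started from a higher level, with 6.71, 5.91 and 5.62 CPM in Chd8+/+ and 5.47, 5.39 and 5.66 CPM in Chd8+/- at E12.5. At P5 it was at 19.1, 19.4 and 22.9 CPM and at 21.8, 21.1 and 22.3 CPM. Its rise was smaller than that of the other transcription factors of the group, at 1.75 (standard error 0.0965) and 1.99 (standard error 0.0673) on the log2 scale.

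Among the genes whose products act at synapses, Bdnf (ENSMUSG00000048482, chr2:109674700-109727007, + strand), the neurotrophin that signals through TrkB, showed the largest rise of all 10. It was at 0.559, 0.597 and 0.564 CPM in Chd8+/+ and 0.434, 1.01 and 0.718 CPM in Chd8+/- at E12.5. At P5 it was at 7.45, 8.36 and 7.26 CPM in Chd8+/+ and 7.50, 7.56 and 7.02 CPM in Chd8+/-. The log2 fold change was 3.74 in Chd8+/+ (standard error 0.137, adjusted p = 8.15e-11, edgeR), or 13.4-fold, and of 3.35 in Chd8+/- (standard error 0.220, adjusted p = 5.22e-07, edgeR), or 10.2-fold. Among all genes tested, these values lie at percentiles 94.7 and 93.4 of the log2 fold changes.

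Arc (ENSMUSG00000022602, chr15:74669083-74672570, - strand), which is known to carry out the removal of AMPA receptors from synapses, had the smallest rise. It was at 3.51, 3.86 and 2.93 CPM in Chd8+/+ and 3.86, 2.93 and 3.65 CPM in Chd8+/- at E12.5. At P5 the libraries held 9.83, 11.5 and 10.01 CPM in Chd8+/+ and 8.22, 8.64 and 10.2 CPM in Chd8+/-. The log2 fold changes of 1.61 (standard error 0.116) and 1.39 (standard error 0.138) lie at percentiles 81.6 and 79.4 among all genes tested.

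Dusp1 and Ier2 moved in the opposite direction. Dusp1 (ENSMUSG00000024190, chr17:26505590-26508519, - strand) was at 25.5, 26.2 and 24.3 CPM in Chd8+/+ and 26.1, 24.0 and 26.1 CPM in Chd8+/- at E12.5. It fell to 9.07, 10.7 and 11.2 CPM and to 9.22, 8.28 and 9.51 CPM at P5. Its log2 fold change was -1.30 in Chd8+/+ (standard error 0.0804, adjusted p = 1.27e-08, edgeR) and -1.48 in Chd8+/- (standard error 0.0768, adjusted p = 9.49e-08, edgeR). Ier2 (ENSMUSG00000053560, chr8:84661331-84662852, - strand), a nuclear protein encoded by an intronless immediate early gene, was at 19.9, 20.1 and 18.98 CPM and at 19.5, 17.996 and 19.7 CPM at E12.5. It was at 6.22, 8.01 and 5.78 CPM and at 7.50, 6.52 and 6.72 CPM at P5, 2.95-fold lower in Chd8+/+ and 2.73-fold lower in Chd8+/-. The stages were apart in every library for both genes, and their log2 fold changes lie between percentiles 10.7 and 14.1 of all genes tested.

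**Figure D2:**
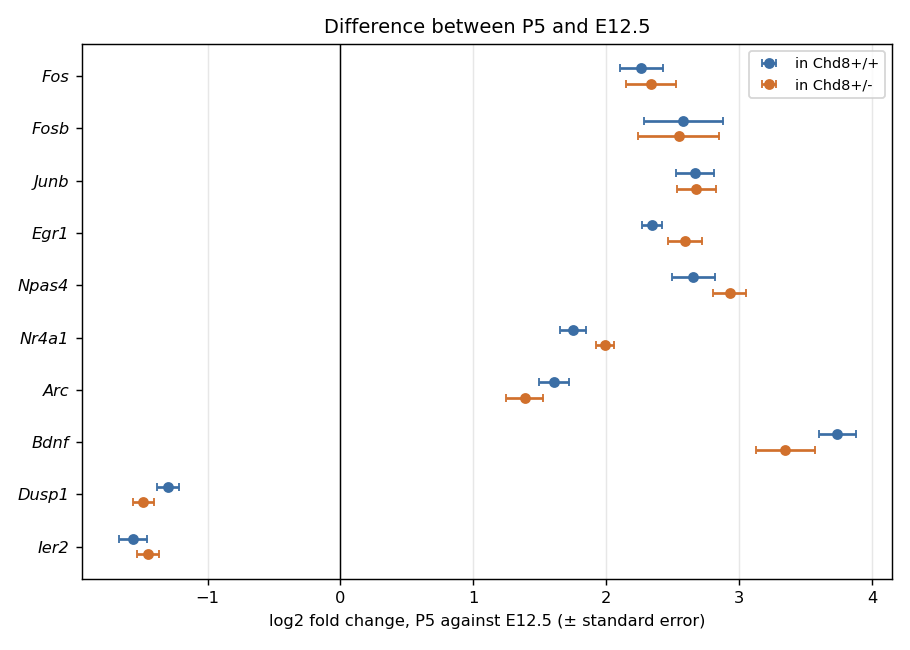
Log2 fold change of each gene from E12.5 to P5 with its standard error, in Chd8+/+ (blue) and Chd8+/- (orange). The 8 rising genes lie between 1.39 and 3.74, and Dusp1 and Ier2 between -1.56 and -1.30.

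Over the 10 genes, the median log2 fold change was 2.30 in Chd8+/+ and 2.44 in Chd8+/-, beside -0.02 and 0.00 over all genes tested. The 8 called higher and 2 called lower stand beside the shares of 41.7% and 42.3% of all genes in Chd8+/+. Cell type markers moved with the stage. Radial glia and progenitor genes summed to 1308 to 1479 CPM at E12.5 and 112 to 133 CPM at P5, and excitatory neuron genes to 282 to 468 CPM and 1023 to 1123 CPM. In the excitatory neuron list Slc17a7 rose most, from 16.9 to 417 CPM in Chd8+/+. Tbr1 alone of that list fell, from 222 to 119 CPM in Chd8+/+ (log2 fold change -0.89). Microglia genes summed to 27.7 to 34.6 CPM at E12.5 and 89.3 to 120 CPM at P5. The part of these cell types in the stage difference of the immediate early genes was not tested.

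When the levels were expressed per kilobase of exon, the order of the genes differed between the stages. At E12.5, Ier2 was highest with a mean of 12.7 CPM per kilobase over the 6 libraries (range 11.8 to 13.2), followed by Dusp1 with 9.40 (range 8.89 to 9.71) and Nr4a1 with 2.34 (range 2.18 to 2.71). Arc, Egr1 and Junb, at 1.13, 1.09 and 1.08 CPM per kilobase, overlapped one another. Npas4 at 0.551, Fos at 0.324, Bdnf at 0.104 and Fosb at 0.0351 CPM per kilobase each lay apart from its neighbors. At P5, Nr4a1 was highest with 8.53 CPM per kilobase (range 7.71 to 9.26), and it overlapped Junb with 6.87 (range 6.22 to 7.96), which in turn overlapped Egr1 with 5.96 (range 5.37 to 6.44). Ier2 at 4.46, Npas4 at 3.80, Dusp1 at 3.58 and Arc at 3.18 CPM per kilobase formed a stretch in which each gene overlapped the next. Fos at 1.58, Bdnf at 1.21 and Fosb at 0.214 CPM per kilobase were lowest and apart. On this scale the genes lay between percentiles 0.205 (Fosb) and 73.7 (Ier2) of all genes tested at E12.5. At P5 they lay between percentiles 8.12 (Fosb) and 66.4 (Nr4a1).

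**Figure D3:**
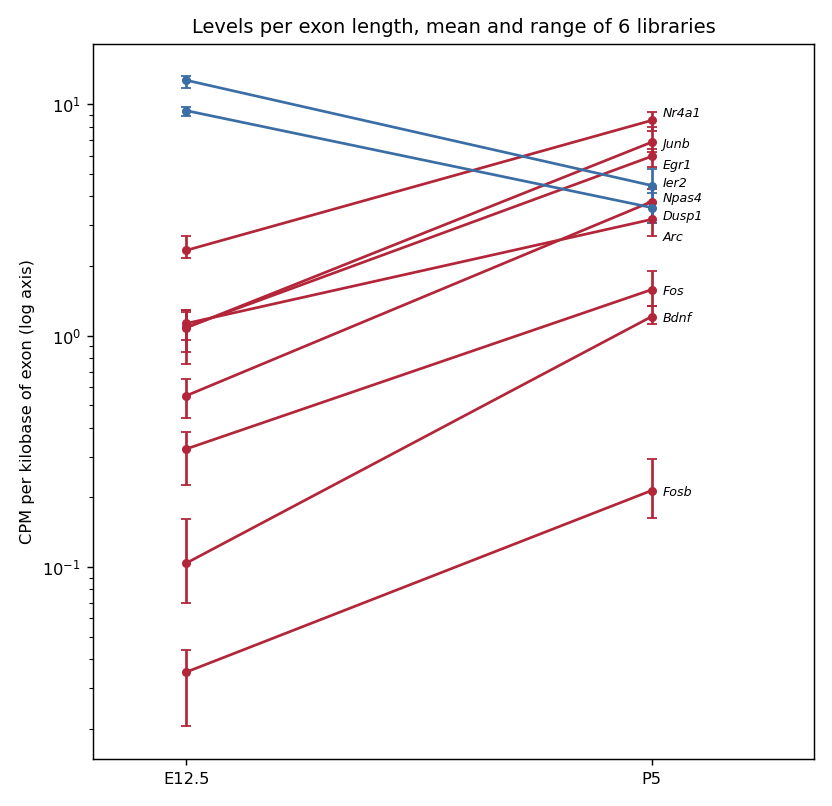
Mean CPM per kilobase of exon (log axis) of each gene over the 6 libraries of a stage, with bars from the lowest to the highest library, red for genes that are higher and blue for genes that are lower at P5. Ier2 and Dusp1 lead at E12.5, with means of 12.7 and 9.40, and Nr4a1 and Junb at P5, with means of 8.53 and 6.87.

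To ask whether Chd8 haploinsufficiency altered these genes, Chd8+/- was compared with Chd8+/+ within each stage. None of the 9 genes that passed the filter on low counts at E12.5 was called, and none of 10 at P5. Fosb did not pass the filter at E12.5. Among all genes, edgeR called 0.00553% at E12.5 and 0.00536% at P5, which is Chd8 itself at each stage. DESeq2's Wald test, among the genes its own filter retained, called 0.0374% at E12.5 and 5.28% at P5, and limma-voom called 0.00553% and 0.00536%, with no gene of the group in either. Fos, Fosb, Npas4 and Bdnf at E12.5 and Fos and Fosb at P5 did not pass DESeq2's own filter and could not be called by it. At an unadjusted p under 0.05, 1 gene of the group passed at E12.5 and 0 at P5, beside 5.15% and 17.8% of all genes tested.

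That gene was Egr1 at E12.5, with 5.48 ± 0.293 CPM (SD, n = 3) in Chd8+/+ and 4.29 ± 0.796 CPM (SD, n = 3) in Chd8+/- libraries. The genotypes did not overlap, and the lowest Chd8+/- library was at 3.40 CPM. The log2 fold change was -0.36 (standard error 0.144, unadjusted p = 0.0353, adjusted p = 0.942, edgeR). It was -0.21 without Chd8+/- replicate 2, the library with the lowest value. The unadjusted p was above 0.05 in 4 of the 6 fits that leave out a library (0.0515 to 0.106), with the replicate block (0.0594) and in run 2 alone (0.0822). It was under 0.05 in the other alternatives. There it ran from 0.00784 (all 12 libraries in 1 model, adjusted p = 0.543, edgeR) to 0.0475 (without Chd8+/- replicate 3, edgeR). Without overlap between genotypes were 1 of the 10 genes at E12.5, beside 11.4% of all genes, and at 0 of 10 at P5, beside 23.4% of all genes.

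At E12.5, the other genes had log2 fold changes between -0.26 (Fos, standard error 0.225) and 0.34 (Bdnf, standard error 0.293), with adjusted p-values of 0.957 and above in edgeR. Between these lay Nr4a1 at -0.14 (standard error 0.103), Npas4 at -0.10, Junb at -0.04 (standard error 0.206) and Arc at 0.02 (standard error 0.156), each with libraries of the genotypes that overlap. Single libraries weighed on several of these values. Fos was at -0.09 without Chd8+/- replicate 3 and at -0.41 without Chd8+/- replicate 1, and Bdnf at 0.04 without Chd8+/- replicate 2 and at 0.58 without Chd8+/- replicate 1 (unadjusted p = 0.0472, adjusted p = 0.897, edgeR). Npas4 was at 0.24 in run 1 alone and at -0.43 in run 2 alone. Nr4a1 was at -0.07 without Chd8+/+ replicate 1 and at -0.28 in run 1 alone (unadjusted p = 0.0480, adjusted p = 0.969, edgeR), with 0.00012 in run 2 alone. Dusp1 and Ier2, the most deeply counted of the group at this stage, were measured most closely. Their values were 25.3 ± 0.954 and 25.4 ± 1.23 CPM for Dusp1 and 19.7 ± 0.608 and 19.1 ± 0.921 CPM for Ier2 in Chd8+/+ and Chd8+/- (SD, n = 3), with log2 fold changes of 0.00 (standard error 0.0616) and -0.05 (standard error 0.0635). Endothelial marker genes summed to 230 to 234 CPM in Chd8+/+ and 204 to 216 CPM in Chd8+/- at this stage, and their part in the values of Egr1 was not tested.

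At P5, 7 genes had a negative and 3 a positive log2 fold change, with a median of -0.07 beside 0.00 over all genes tested. The lowest unadjusted p-values belonged to Arc and Dusp1. Arc was at 10.4 ± 0.918 CPM in Chd8+/+ and 9.02 ± 1.05 CPM in Chd8+/- (SD, n = 3), a log2 fold change of -0.19 (standard error 0.0987, unadjusted p = 0.0774, adjusted p = 0.336, edgeR). Dusp1 was at 10.3 ± 1.10 and 9.01 ± 0.643 CPM (SD, n = 3), a log2 fold change of -0.18 (standard error 0.0959, unadjusted p = 0.0950, adjusted p = 0.366, edgeR). Both differences were within the range of the libraries, which overlapped. With 1 library left out, the log2 fold change of Arc ran from -0.28 to -0.12 and that of Dusp1 from -0.26 (without Chd8+/+ replicate 1) to -0.11 (without Chd8+/+ replicate 3).

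Fosb had the most negative value at P5, -0.31 (standard error 0.218), on 26 to 48 reads per library, and Fos was at -0.18 (standard error 0.124). Without Chd8+/+ replicate 2 they were at -0.14 and -0.08. Npas4, at 11.8 ± 2.06 CPM in Chd8+/+ and 13.1 ± 0.365 CPM in Chd8+/- (SD, n = 3), had the most positive value, 0.18 (standard error 0.110). Npas4 was at 0.07 without Chd8+/+ replicate 1 and at 0.33 without Chd8+/+ replicate 3, and Nr4a1, at 0.10 (standard error 0.0752) with all libraries, was at 0.05 and 0.20 without the same libraries. With all libraries Ier2 was at 0.07 (standard error 0.124). Egr1 was at -0.10 (standard error 0.0644, adjusted p = 0.434, edgeR), with -0.06 without Chd8+/- replicate 1 and -0.15 without Chd8+/+ replicate 1, while Junb and Bdnf were at -0.02 and -0.05. Striatal genes summed to 231 to 252 CPM in Chd8+/+ and 165 to 209 CPM in Chd8+/- libraries, and choroid plexus genes to 443 to 573 CPM and 323 to 382 CPM. Interneuron genes summed to 445 to 463 CPM and 355 to 428 CPM, and mural cell genes to 203 to 226 CPM and 185 to 200.05 CPM. Endothelial genes summed to 203.4 to 232 CPM and 182 to 203.1 CPM. The sums of these 5 marker lists were thus lower in all Chd8+/- libraries at P5, while the sums of the other marker lists overlapped between the genotypes. Of the genes in these 5 lists, Cldn5 alone had a positive log2 fold change at P5 (0.02), and Lhx6 was at -0.005. Beside this, the genotypes did not overlap at 23.4% of all genes at P5. The part of these marker lists in the values of the immediate early genes was not tested.

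**Figure D4:**
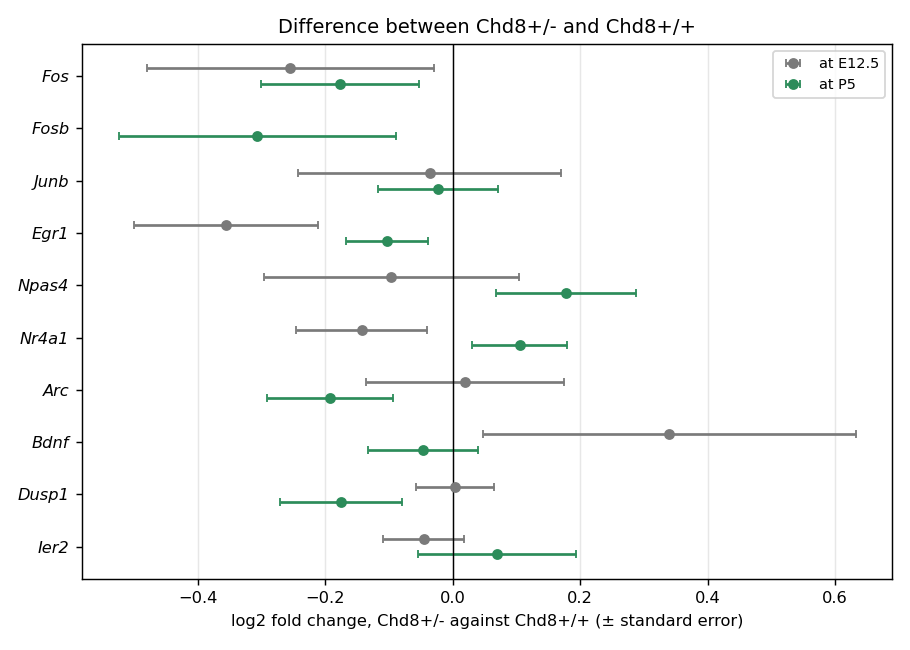
Log2 fold change of each gene in Chd8+/- against Chd8+/+ with its standard error, at E12.5 (gray) and P5 (green). All values lie between -0.36 and 0.34, and Fosb has no value at E12.5, where it did not pass the filter on low counts.

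The interaction of genotype and stage, which asks whether the genotype difference changed between E12.5 and P5, was called for none of the 10 genes in a fit of all 12 libraries. Among all genes, edgeR and limma-voom called 0.0% and 0.0%, DESeq2 0.0938%, with none of the 10 genes past DESeq2's own filter, and 10% had an unadjusted p under 0.05 in edgeR. No gene of the group passed at an unadjusted p under 0.05. The value closest to the threshold was that of Nr4a1, 0.23 (standard error 0.120, unadjusted p = 0.0742, adjusted p = 0.535, edgeR). The largest was that of Bdnf, -0.41 (standard error 0.273), which was -0.09 without E12.5 Chd8+/- replicate 2, -0.62 without E12.5 Chd8+/- replicate 1 (unadjusted p = 0.0116, adjusted p = 0.418, edgeR), -0.09 in run 1 alone and -0.72 in run 2 alone. Npas4 and Egr1 were at 0.26 and 0.24, Arc and Dusp1 at -0.23 and -0.20, and the median over the 10 genes was 0.03 beside -0.02 over all genes. Over all alternatives the value ran from 0.10 to 0.39 for Nr4a1, 0.03 to 0.51 for Npas4, 0.10 to 0.36 for Egr1, -0.33 to -0.12 for Arc and -0.28 to -0.13 for Dusp1. For Nr4a1 and Npas4 the extremes were those of the single runs, with 0.39 and 0.03 in run 1 alone and 0.10 and 0.51 in run 2 alone. Egr1 was at 0.10 without E12.5 Chd8+/- replicate 2 and at 0.36 without E12.5 Chd8+/- replicate 1 (adjusted p = 0.461, edgeR). Arc was at -0.12 without E12.5 Chd8+/+ replicate 3 and at -0.33 without E12.5 Chd8+/- replicate 2, and Dusp1 was at -0.28 without P5 Chd8+/+ replicate 1. The standard errors ran from 0.112 for Dusp1 to 0.504 for Fosb, so that depth limits what could be detected for the latter.

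The spread between libraries of 1 genotype was then examined. The SD of log2 CPM within genotypes was pooled over both genotypes of a stage (4 degrees of freedom) and set beside the SD that counting error alone gives at the same mean count. At E12.5 the SD ran from 0.0622 for Ier2 to 0.423 for Bdnf, with a median of 0.234 over the 10 genes and 0.110 over all genes tested. Counting error alone would give a median of 0.133 for the 10 genes, of which 8 (all except Dusp1 and Ier2) had fewer reads than the median gene, and 0.0536 for all genes. At P5 the SD ran from 0.0854 for Bdnf to 0.248 for Fosb, with a median of 0.143 over the 10 genes and 0.0926 over all genes, where counting error gives 0.0686 and 0.0553.

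**Figure D5:**
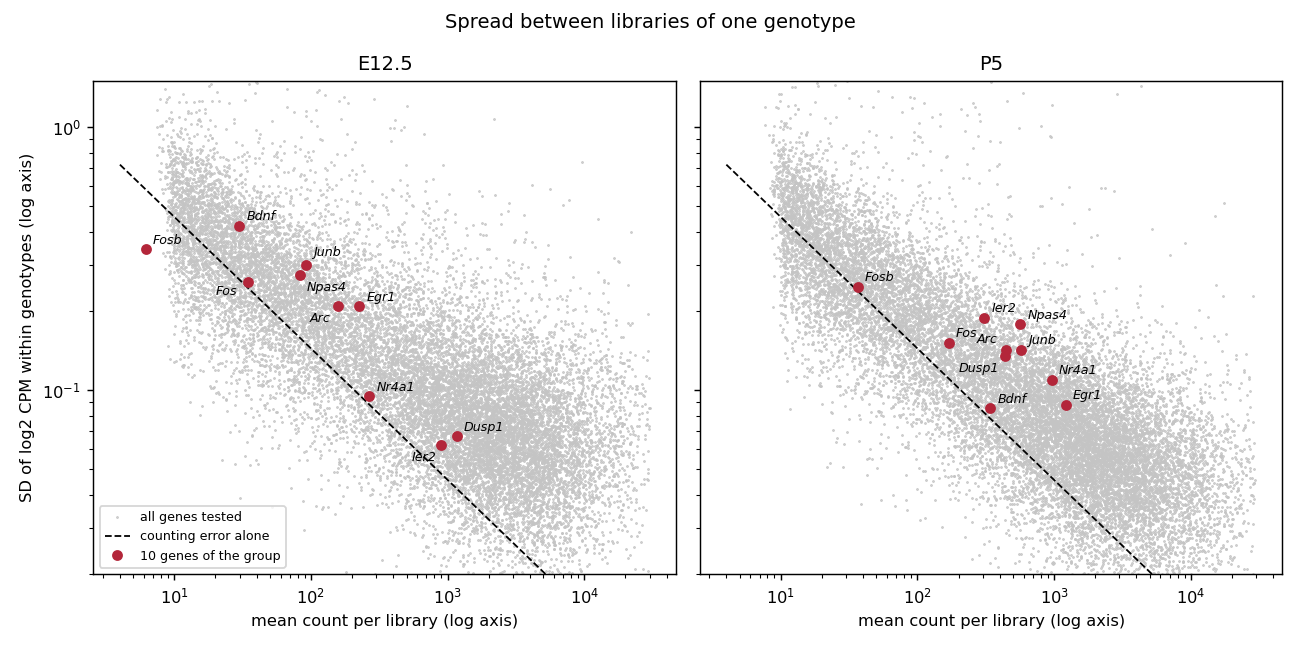
SD of log2 CPM within genotypes against the mean count per library (both axes logarithmic) at E12.5 and P5, for the 10 genes (red, named) and all genes tested (gray, those outside the axes are not drawn), with the SD expected from counting error alone as a dashed line. Fos and Nr4a1 at E12.5 and Bdnf and Fosb at P5 lie near the line, and Npas4 at 0.178 and Ier2 at 0.189 lie well above it at P5.

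The SD that remains after the counting error is subtracted as a variance had a median of 0.129 over the 10 genes at E12.5 and 0.110 at P5, beside 0.0732 and 0.0550 over all genes tested. It was above the median of all genes for 6 of the 10 genes at E12.5 and for 9 of 10 at P5. These are descriptions of a group that was listed by name, and no test was made of them. At E12.5, Bdnf had 0.331 and Junb 0.260, at percentiles 92.3 and 88.6 of all genes, while Nr4a1, Ier2 and Dusp1 had 0.0347, 0.0391 and 0.0518, all below the median gene. At P5, Ier2 and Npas4 had 0.170 and 0.167, at percentiles 84.6 and 84.3, and Bdnf 0.0348, at percentile 34.9. Ier2 thus varied little between embryonic libraries and more than most genes between postnatal ones, and Bdnf the other way round by this measure. The spread of Bdnf at E12.5 came from the Chd8+/- libraries, with 17, 45 and 35 reads against 29, 26 and 27 in Chd8+/+, and the ratio of its variance to that of counting error, 2.35, was below that of the median gene, 3.05.

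The 2 sequencing runs of a library were compared in the same way. The ratio of observed to expected variance between runs had a median over the 10 genes of 1.03 at E12.5 and 0.746 at P5, beside 1.02 and 0.984 over all genes. It ran from 0.618 to 1.82 at E12.5 and from 0.457 to 2.04 at P5, and Npas4 had the highest value at both stages. Between libraries of 1 genotype the same ratio had a median of 2.38 at E12.5 and 4.52 at P5, beside 3.05 and 2.27 over all genes. It reached 9.12 for Npas4 at P5 and was lowest for Fosb at E12.5, at 0.366 on a mean of 6.17 reads. The highest and lowest of the 6 libraries of a stage, genotypes pooled, were at most 2.32-fold apart at E12.5 (Bdnf) and 1.81-fold apart at P5 (Fosb), and at least 1.09-fold apart at E12.5 (Dusp1) and 1.19-fold apart at P5 (Bdnf). For each of the 10 genes this fold was smaller than its fold between the stages in either genotype.

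Single libraries nevertheless carried small shifts across the group. In P5 Chd8+/+ replicate 1, all 10 genes were below their group mean, by a median of 0.10 on the log2 scale, while 49.7% of all genes tested were below it. This library had the lowest value of its group for 7 of the 10 genes and the highest depth of all 12 libraries, 54695236 reads. In P5 Chd8+/+ replicate 2, 8 genes were above the group mean, by a median of 0.13, and 57.6% of all genes were also above it. This library was the highest of its group for 7 genes. Among Chd8+/- libraries at P5, replicate 2 had 9 genes below the group mean (48.9% of all genes) and was lowest for 7, and replicate 3 had 8 above (52.0% of all genes) and was highest for 7. At E12.5, Chd8+/+ replicate 3 had 8 genes below the group mean (50.3% of all genes) and was lowest for 6, and Chd8+/- replicate 2 had 7 below (48.9% of all genes) and was lowest for 6. The shares of all genes that were lowest or highest in a library were not taken. With DESeq2 size factors in place of TMM, a setting added after the data were seen, all 10 genes were below the group mean in P5 Chd8+/+ replicate 1, and likewise with total counts, while P5 Chd8+/- replicate 2 then had 9 and 8 genes below it. Heat shock genes, some of which respond to stress of tissue, summed to 2276 to 2525 CPM in P5 Chd8+/+ and 2225 to 2296 CPM in P5 Chd8+/- libraries, and to 2799 to 3269 CPM at E12.5. Hspa8 (1236 CPM) and Hsp90aa1 (890 CPM) dominated this sum in P5 Chd8+/+, where Hspa1a was at 2.50 and Hspb1 at 1.22 CPM. The sum therefore says little about the latter 2. The relation of heat shock genes to the shifts was not tested.

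The genes whose deviations from the group mean were most like those of Fos were Gfpt1, Lzts1, Rab11fip4, Lysmd1 and Slc46a3, with Pearson's r of 0.91, 0.90, 0.90, 0.90 and 0.90 over 12 libraries, the highest of 13939 genes compared. With so many genes, values of this size are given as a description. Gfpt1 encodes the enzyme that opens the hexosamine pathway. The other genes of the group had r between -0.38 (Fosb) and 0.26 (Npas4) with Fos, at percentiles from 10.7 to 75.4 of the genes compared. Over the 6 libraries of P5 alone, r with Fos was between 0.63 and 0.90 for Ier2, Dusp1, Egr1, Junb, Arc and Fosb, and between 0.06 and 0.32 for Nr4a1, Npas4 and Bdnf. Over the 6 libraries of E12.5 alone it was between -0.93 (Fosb) and 0.31 (Npas4). The values of a single stage rest on 6 libraries and were not set beside those of all genes. They therefore show no link that is particular to Fos. All values share the library's depth and scaling.

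A wider list of 33 other immediate early genes was followed in the same fits. It was chosen with earlier results of these data known. In Chd8+/+, 19 of them rose and 9 fell between E12.5 and P5, and 5 were not called. In Chd8+/-, 18 rose, 11 fell and 4 were not called. Among all genes, 84.0% were called in Chd8+/+ and 83.2% in Chd8+/-, so that the number called is near the share of all genes. The median log2 fold change was 0.67 and 0.65, beside -0.02 and 0.00 over all genes. The genes with the smallest p that rose were Nr4a3, a close relative of Nr4a1, Fosl2, a further AP-1 subunit, and Plk2, a kinase of synaptic scaling. Nr4a3 was at 3.15 ± 0.168 CPM at E12.5 and 74.8 ± 4.35 CPM at P5 in Chd8+/+ (SD, n = 3), a log2 fold change of 4.56 (standard error 0.0788), and its log2 fold change in Chd8+/- was 4.41. Fosl2 rose by 4.06 and 3.64 on the log2 scale, and Plk2 by 2.04 and 1.83.

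The genes that fell with the smallest p were Btg2, an antiproliferative gene that marks neurogenic progenitors, Gadd45g, a stress and differentiation gene, and Ccn1, a matricellular protein. Btg2 went from 97.1 ± 2.69 to 11.6 ± 0.887 CPM in Chd8+/+ (SD, n = 3), a log2 fold change of -3.06 (standard error 0.0654), and of -3.32 in Chd8+/-. Gadd45g had log2 fold changes of -2.14 and -2.24, and Ccn1 of -2.52 and -2.78. Dusp1 and Ier2 were thus not the only immediate early genes that fell.

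Of 14 genes listed as late activity-regulated, 10 rose and 3 fell in each genotype, beside 41.7% of all genes higher and 42.3% lower in Chd8+/+ and 41.7% and 41.5% in Chd8+/-. The median log2 fold change was 1.44 in Chd8+/+ and 1.199 in Chd8+/-. Vgf, a neuropeptide precursor, went from 0.746 ± 0.113 to 87.5 ± 6.01 CPM in Chd8+/+ (SD, n = 3), a log2 fold change of 6.88 (standard error 0.104). Scg2, a secretogranin, rose by 3.96 and Sst, the neuropeptide somatostatin, by 4.09. Gadd45a, Nrn1 and Gem fell in both genotypes, with log2 fold changes of -1.94, -0.67 and -0.76 in Chd8+/+.

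Of 18 upstream regulators, the kinases and factors that transmit the stimulus, 11 rose and 6 fell in each genotype, beside the same shares of all genes. In Chd8+/+, Camk4, a kinase of CREB, rose by 5.30 (standard error 0.0609) from 8.46 ± 0.656 to 335 ± 4.95 CPM (SD, n = 3), Mef2c, a neuronal transcription factor, by 4.93 and Camk2a, a synaptic kinase, by 2.90. Creb1 itself fell by 1.71 on the log2 scale in each genotype, from 223 ± 9.96 to 68.3 ± 2.88 CPM in Chd8+/+ (SD, n = 3), and its coactivator Crebbp and the kinase gene Rps6ka3 also fell. In Chd8+/-, Crtc1, a CREB coactivator, was among the 3 rising genes with the smallest p, with a rise of 1.64. Of 7 heat shock genes, 2 rose (Hspa1a and Hspb1) and 3 fell (Dnajb1, Hspa8 and Hsp90aa1) in each genotype, beside 84.0% and 83.2% of all genes called.

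None of the genes of these 4 lists was called by edgeR between the genotypes at either stage or for the interaction. In the list of other immediate early genes, 2 of 31 had an unadjusted p under 0.05 at E12.5 and 8 of 33 at P5, beside 5.15% and 17.8% of all genes tested. All 8 were lower in Chd8+/-, beside 9.77% of all genes that were lower at this p, and of the 33 genes 26 had a negative and 7 a positive log2 fold change. The list's median at P5 was -0.05 on the log2 scale. DESeq2 called 0 of 27 at E12.5 and 1 of 24 at P5 that passed its own filter, beside 0.0374% and 5.28% of all genes. The smallest p at P5 were those of Jun, with 40.7 ± 1.63 CPM in Chd8+/+ and 34.5 ± 0.253 CPM in Chd8+/- (SD, n = 3) and a log2 ratio of -0.23 (standard error 0.0455, adjusted p = 0.0973, edgeR), and of Ccn1, with -0.42 (standard error 0.122, adjusted p = 0.139, edgeR). At E12.5 they were Crem, 0.20, and Ccn1, -0.16.

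Of the late activity-regulated genes, 1 of 12 had an unadjusted p under 0.05 at E12.5, Vgf with 0.746 ± 0.113 CPM in Chd8+/+ and 1.29 ± 0.315 CPM in Chd8+/- (SD, n = 3) and a log2 ratio of 0.78 (standard error 0.236, adjusted p = 0.942, edgeR). At P5 it was 3 of 14, led by Scg2, at -0.26 (standard error 0.0652, adjusted p = 0.117, edgeR), and Nefm, at -0.18. DESeq2 called 2 of 10 that passed its filter at P5, beside 5.28% of all genes. Of the upstream regulators, 1 of 18 and 5 of 18 had an unadjusted p under 0.05, with Crtc2 at -0.21 and Camk2a at -0.15 leading at E12.5, and Ntrk2, the receptor of Bdnf, at -0.15 (standard error 0.0419, adjusted p = 0.133, edgeR) and Elk4 at 0.15 leading at P5. DESeq2 called 1 of 18 upstream regulators at P5, which is near the 5.28% of all genes. Of the heat shock genes, 0 and 1 of 7 had an unadjusted p under 0.05, and DESeq2 called none of the 4 that passed its filter. For each list these counts stand beside the 5.15% and 17.8% of all genes with an unadjusted p under 0.05. The leading values were those of Hsp90aa1 at 0.11 and Hspa1b at -0.11 at E12.5, and of Hsp90aa1 at -0.12 and Dnajb1 at 0.08 at P5.

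For the interaction, 5 of 33 other immediate early genes, 5 of 14 late genes, 1 of 18 upstream regulators and 1 of 7 heat shock genes had an unadjusted p under 0.05, beside 10% of all genes. The 5 other immediate early genes and the 5 late genes were all negative, beside 6.87% of all genes that were negative at this p. Over the whole lists, 26 of 33 and 13 of 14 genes had a negative value, with medians of -0.11 and -0.25 beside -0.02 over all genes. DESeq2 called none of the 13, 8, 17 and 4 genes of these lists that passed its filter. The leading values were those of Btg2 at -0.27 and Fosl2 at -0.43, Inhba at -2.98 and Vgf at -0.74, Rps6ka3 at -0.13 and Crtc2 at 0.29, and Hsp90aa1 at -0.24 and Dnajb1 at 0.06, with adjusted p-values of 0.362 and above in edgeR. Inhba, a subunit of activin, was at 0.0204 CPM in Chd8+/+ and 0.179 CPM in Chd8+/- at E12.5, so that its value rests on few reads.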

How the data were processed

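RNA of 12 cortex libraries, 3 per genotype and stage, was sequenced in 2 runs each. The authors trimmed the paired-end reads with Trim Galore 0.4.1, aligned them to GRCm38 with TopHat2 2.1.0 and counted them with featureCounts 1.5.0 per the labels and methods. The deposited values are raw counts per Ensembl gene and run, with the merged exon length of each gene (a score in bases). No strand was set in the P5 counting command and none is recorded for E12.5.

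Runs were summed. Symbols were found for 46005 of 46603 identifiers. Groups were compared with edgeR 4.0.16 (R 4.3.3) after TMM normalization and filterByExpr (minimum count 10), with the quasi-likelihood test, Benjamini-Hochberg adjustment over all genes and a threshold of 0.05. The spread was taken on log2 CPM with 0.5 added to each count. Alternatives were DESeq2 1.42.0, limma-voom (limma 3.58.1), other scalings, no filter on low counts, single runs, leaving out each library, a block for the replicate number, and 1 model of all 12 libraries. Named genes are all 10, Chd8, and from each pathway list up to 3 called genes per direction with the smallest p, or the 2 with the smallest p where none was called, and the 5 genes (mean of at least 1 CPM at both stages) most like Fos. The genes, lists and markers were chosen with earlier results of these data known. Depth was 38774591 to 54695236 counts per library. Tables used pandas 2.3.3 in Python 3.11.15, and plots matplotlib 3.10.9.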

Additional observations from a re-analysis of the deposited data

How the results depend on the processing

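The number of genes of the group called was 10 in each stage comparison and 0 in each genotype comparison and in the interaction under every alternative, including the replicate block (10, 10, 0, 0 and 0), single runs and limma-voom, and with any library left out it stayed at 10 or 0. DESeq2 gave 10 and 10 in the stage comparisons and 0 in the genotype comparisons, where 6 genes at E12.5 and 8 at P5 passed its filter, and it gave no call for the interaction, where none did. The 8 rising genes and the 2 falling genes kept their direction in both genotypes in all of these. Same-numbered libraries of 2 groups correlated between -0.25 and 0.33 in their deviations from the group means over 18 pairs, most of which cross the stages. Between the genotypes all values were positive at P5, where replicate 1 had the highest of all pairs, and all were negative at E12.5. Correlations of this size cannot show whether same-numbered libraries share a litter or a day of processing, which was not tested. Under the alternatives, 730 log2 fold changes kept their sign and side of the threshold and 40, none of them called, changed sign. At E12.5, with 1 library left out, the log2 fold change ran from -0.19 to 0.11 for Junb, -0.084 to 0.13 for Arc, -0.25 to 0.022 for Npas4 and -0.027 to 0.046 for Dusp1. In run 2 alone it was 0.20 for Junb, 0.00012 for Nr4a1, -0.019 for Dusp1 and 0.037 for Ier2, in run 1 alone -0.0064 for Arc and 0.24 for Npas4, and with no filter on low counts -0.0024 for Dusp1. At P5, with 1 library left out, it ran from -0.091 to 0.080 for Junb, -0.079 to 0.016 for Bdnf and -0.015 to 0.22 for Ier2, and was 0.072 for Bdnf in run 1 alone. For the interaction, the ranges were -0.084 to 0.24 for Fos, -0.23 to 0.31 for Fosb and -0.13 to 0.17 for Junb, with 0.37 and 0.24 for Fosb and Junb in run 1 alone, 0.016 and 0.012 in limma-voom, and 0.026 for Junb with total counts. The cause was not tested. The log2 fold change of Egr1 at E12.5 ran from -0.46 to -0.21 over all alternatives, with adjusted p-values of 0.543 and above. Over all genes, the count called between genotypes at P5 was 1 in edgeR, 653 in DESeq2, 995 with no filter on low counts and 327 without Chd8+/- replicate 2. It was 1, 5 and 13 at E12.5 in the first 3, and 0, 8 and 17 for the interaction. DESeq2 shifted the median log2 fold change of all genes between the stages to 0.12 in Chd8+/+ and 0.15 in Chd8+/-, and no filter on low counts to 0.11 in Chd8+/-. The median SD of log2 CPM over the 10 genes ran from 0.195 to 0.307 at E12.5 and from 0.117 to 0.157 at P5 over its alternatives, of which those that leave out a library were chosen after seeing the data. Low counts limit Fosb, Bdnf and Fos at E12.5.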
